A study of Homo sapiens with 3 samples.

Results

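The cytosolic heat shock chaperones and their cofactors were followed in khES3, an established line of undifferentiated human embryonic stem cells, after 5 hours in complete medium, in medium lacking leucine or in medium lacking lysine. The members are 38 listed genes for the heat shock factors, HSP70, HSP110 and HSP90 proteins, small heat shock proteins, J-domain proteins, BAG proteins, HSP90 cofactors and the CCT chaperonin. They were taken as every probe set whose annotation names exactly 1 of these genes, which gave 67 of the 54675 probe sets and 31 genes of the 19775 named by a probe set of their own. HSPA1A, HSPA1B, HSPA8 and TCP1 were read only by probe sets that name several genes, and those are described separately by their annotation. HSF2 and AHSA1 were not analysed here, and the probe sets of HSPB11 carry the symbol IFT25. Each condition had 1 array, so no difference below has a replicate check or a p-value, and both deprivations were set against the same complete-medium array, whose own error enters both differences.

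Chaperones bind unfolded or newly made proteins and help them fold. HSP70 proteins do so in cycles of ATP binding that J-domain proteins start and that HSP110 and BAG proteins end by releasing ADP. HSP90 takes over many kinases and receptors from HSP70 with the help of cofactors, and CCT, a ring of different subunits, folds actin and tubulin. Heat shock factor 1 raises many of these genes when unfolded protein accumulates, by binding inverted repeats of the letters GAA called heat shock elements.

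Promoter sequences from RefSeq (GRCh38.p14) were found for 33 of the 38 genes, and the 250 bases before each annotated start were searched on both strands. A heat shock element of 3 units (GAA, NN, TTC, NN and GAA in a row, where N is any base) occurred before a start of 5 of these 33 genes (15.2%), against 152 of 27305 genes in the table (0.557%). These 5 were HSPA8, HSP90AA1, HSP90AB1, CHORDC1 and DNAJB6. The shorter 2-unit forms, GAANNTTC or TTCNNGAA, which are contained in the longer one, occurred for 16 of 33 (48.5%) against 14.0% of all genes. They are printed here because these genes are compared with each other below, with 1 stretch per gene, all bases before the start, and with capitals marking the 3-unit match in the first 5 and the 2-unit match in the last 3.
HSPA8 (chr11:123062141-123062230, minus strand): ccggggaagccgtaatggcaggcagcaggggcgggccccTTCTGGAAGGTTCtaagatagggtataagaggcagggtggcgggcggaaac
HSP90AA1 (chr14:102087112-102087141, minus strand): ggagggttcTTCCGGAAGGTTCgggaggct
HSP90AB1 (chr6:44247822-44247851, plus strand): ctgagattgTTCTGGAAGCTTCtggattct
CHORDC1 (chr11:90223050-90223139, minus strand): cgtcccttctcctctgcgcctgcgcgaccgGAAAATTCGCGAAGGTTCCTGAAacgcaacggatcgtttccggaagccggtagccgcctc
DNAJB6 (chr7:157336834-157336923, plus strand): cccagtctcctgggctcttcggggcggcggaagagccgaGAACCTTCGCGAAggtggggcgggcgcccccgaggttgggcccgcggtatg
DNAJA1 (chr9:33025034-33025123, plus strand): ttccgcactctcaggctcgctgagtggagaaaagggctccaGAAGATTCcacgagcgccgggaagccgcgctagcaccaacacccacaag
DNAJB1 (chr19:14518426-14518455, minus strand): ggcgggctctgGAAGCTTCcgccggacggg
HSPA1A (chr6:31815396-31815485, plus strand): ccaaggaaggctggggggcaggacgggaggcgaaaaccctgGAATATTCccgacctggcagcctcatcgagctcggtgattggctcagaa
In CHORDC1 the capitals cover 3 overlapping matches. A match is a description of the letters, and a window without one says nothing about the factor.

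Signals are the authors' deposited MAS5 values on a linear scale, and a difference is in log2 signal, where 0.585 is 1.5-fold. Because probes differ in how they hybridise, a signal or level percentile describes a probe set's brightness and not how much RNA a gene has relative to another. Each gene is represented by its brightest probe set, and a gene was measured if that probe set lay at or above the median level of the arrays; all 31 genes passed, with 61 of their 67 probe sets, and all 31 lay above the signal floor on every array. The members were bright, with a median level percentile of 84.2 among the 12961 genes measured, and 27 of them belonged to the 6481 genes whose level reached the median of all genes, called the brighter genes below. With no replicates, the only error at hand is how far the probe sets of a gene disagree. Over the 19 members with several, the SD of a difference among them was 0.37 without leucine, 0.35 without lysine and 0.46 between the deprivations, which does not include variation from culture to culture.

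The cells had the markers of the labelled line: all 11 measured stem cell markers were above the floor on every array, with a summed signal of 248000, 262000 and 265000 in complete, leucine-deprived and lysine-deprived cells. The fibroblast list summed to 58200, 53400 and 53400, with VIM at 29146 in complete medium, and COL3A1 and LUM did not reach the level filter. Its genes went apart: THY1 read 12735, 8348 and 7503, whereas COL1A1 read 11552, 13187 and 18609. Of its 7 measured genes, 4 lay below 0 and 3 above 0 in each deprivation. The mesoderm list moved with lysine removal: its summed signal was 295, 318 and 874. Of its 4 genes 3 were measured, and all 3 lay above 0 without lysine, with a median of 1.41. Only 2 of these 3 were above the floor on both arrays of that comparison, and 2 of the 4 were at the floor in complete medium. TBXT (brachyury) of this list read 171, 202 and 454, while MIXL1 was at the floor on every array. The trophoblast list summed to 338, 578 and 410, with HAND1 at 63.1, 133 and 117, and the endoderm list to 439, 243 and 527. The neural list summed to 130, 109 and 189, with none of its genes past the level filter. The part of these markers in the results below was not tested. RNA quality also moved with the conditions. The 3′ to 5′ signal ratio of the ACTB control probe sets was 5.44 in complete medium, 7.55 without leucine and 11.2 without lysine, and for GAPDH it was 1.08, 1.23 and 1.25. Its part was not tested either.

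The first question is how the chaperone genes stood after 5 hours without either amino acid. In both media HSPA2, DNAJA1 and DNAJB1 had a signal 1.96- to 2.82-fold lower. The probe sets of the inducible HSP70 pair were lower still. On their brightest probe sets the CCT subunits differed by less than 1.5-fold. The exception was 3 of them without lysine, when arrays were centred on their medians. After leucine removal 6 of 31 members were at least 1.5-fold lower (19.4%), against 5.97% of all genes measured, and none was 1.5-fold higher, against 9.34%. Among the brighter genes the counts were 6 of 27 (22.2%) against 1.67%. After lysine removal 11 of 31 were at least 1.5-fold lower (35.5%), against 8.69% of all genes, and none was 1.5-fold higher, against 13.2%. Among the brighter genes these were 9 of 27 (33.3%) against 4.97%. The same 6 genes, HSPA2, HSPH1, DNAJA1, DNAJB1, BAG2 and STIP1, were 1.5-fold lower on both deprived arrays, and 20 members differed by less than 1.5-fold on both. The median of the members was -0.04 after leucine removal and -0.37 after lysine removal, where the medians of all genes were 0.01 and 0.00. In the leucine comparison 22 members lay below 0 (71.0%, against 48.3% of all genes), and in the lysine comparison 26 (83.9%, against 49.5%). With each array centred on its median, 17 members were 1.5-fold lower without lysine, and the median of all genes was then -0.24. Without probe sets of the types shared between transcripts, 3 of 20 and 5 of 20 members were 1.5-fold lower. The shares of all genes past 1.5-fold in either setting are not given here, so these counts have no background beside them.

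**Figure D1:**
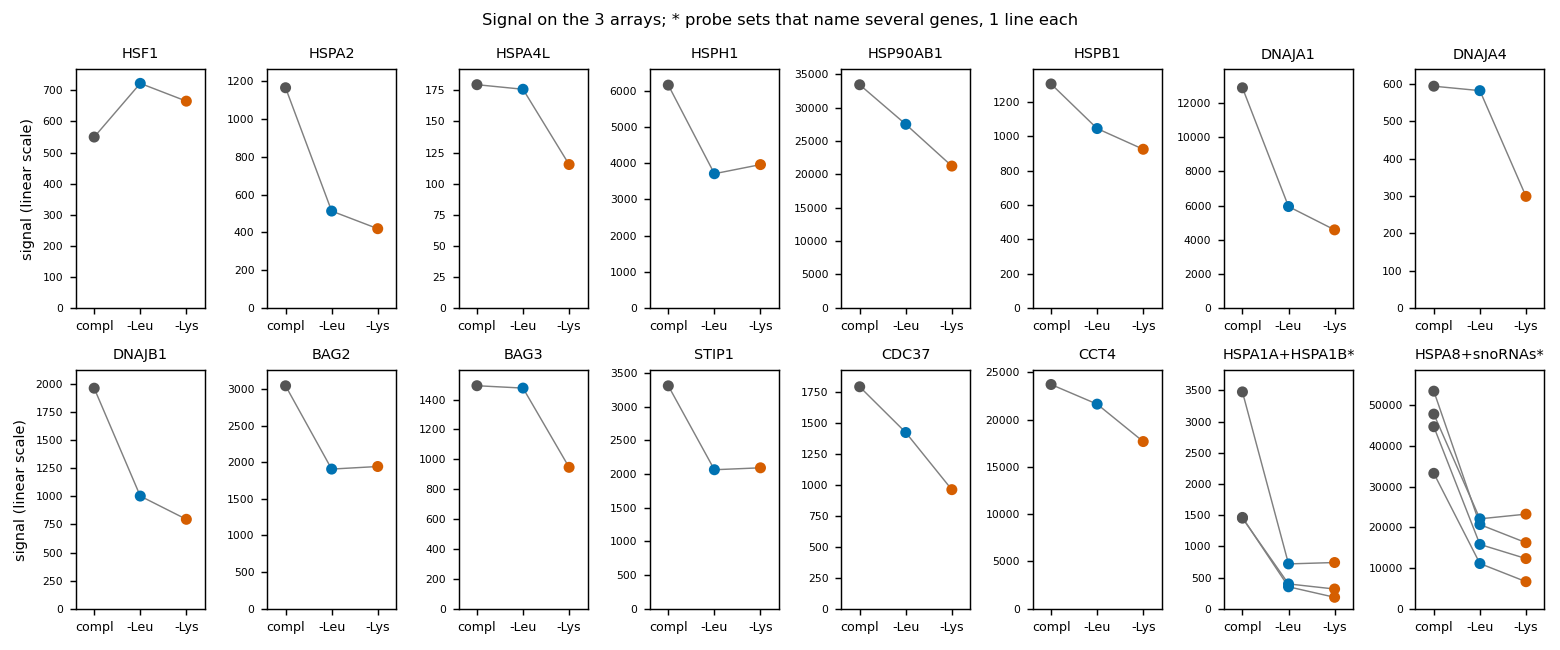
Signal on a linear scale (y axis, from 0) on the 3 arrays (x axis: complete, leucine-deprived, lysine-deprived) for the 14 genes chosen by rule and for probe sets annotated to HSPA1A with HSPA1B and to HSPA8 with snoRNAs; each line joins the 3 values of 1 probe set. DNAJA1 went from 12912 in complete medium to 5943 and 4575, whereas HSPA4L, DNAJA4 and BAG3 were close to their complete-medium signal without leucine and lower without lysine.

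HSF1, which encodes the main heat shock transcription factor, had signals of 550 in complete medium, 723 without leucine and 665 without lysine. It was thus 1 of 3 members above complete medium on both deprived arrays (0.39 and 0.28), at under 1.5-fold, and stayed above under the other scalings tried. The others were DNAJB2 and HSP90AA1. Other scalings turned the sign of HSP90AA1 in both comparisons and of DNAJB2 without lysine.

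Probe sets that name HSPA1A and HSPA1B together had wide differences on both deprived arrays, among them the widest of the chaperone set against complete medium in each. These neighbouring genes encode the stress-inducible HSP70 and are so alike that the probe sets do not separate them, so the values cannot be given to either gene. The brightest probe set had signals of 3477 in complete medium, 719 without leucine and 741 without lysine, and another had 1453, 398 and 316. A further one, whose annotation adds the testis HSP70 gene HSPA1L, had 1464, 352 and 184. All 3 probe sets were thus lower on both deprived arrays, by 3.65- to 4.83-fold without leucine and by 4.59- to 7.96-fold without lysine. None of the 11528 brighter probe sets naming a single gene had a lower difference than any of these 3, in either comparison.

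HSPA8, the constitutive HSP70, was on 4 probe sets that also name SNORD14C and SNORD14D, small nucleolar RNAs encoded in its introns. The brightest had signals of 47838, 22105 and 23254 in complete, leucine-deprived and lysine-deprived cells. The next had 53480, 20695 and 16244, and the one after it 44746, 15818 and 12336. The last had 33284, 11117 and 6657. All 4 were at least 2-fold lower on both arrays, by 2.16- to 2.99-fold without leucine and 2.06- to 5.00-fold without lysine. How much of the signal each annotated RNA gave was not tested. All 4 are of the types shared between transcripts or cross-hybridising, and hybridisation by other HSP70 genes was not tested.

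Of the HSP70 genes with a probe set of their own, HSPA2 was lower and HSPA14 was not. HSPA2, an HSP70 best known from the germ line, had signals of 1166, 513 and 419, which is 2.27-fold lower without leucine and 2.78-fold lower without lysine. It ranked lowest of the 6481 brighter genes without leucine and at place 2 without lysine, although its level percentile of 50.2 put it at their lower edge, and among all 12961 genes it took places 220 and 114. HSPA2 rests on 1 probe set of a type shared between transcripts, and HSP70 genes are alike in sequence; hybridisation by the others was not tested. HSPA14, which works at the ribosome with a J-domain partner, differed by -0.22 without leucine and 0.33 without lysine. All 3 of its probe sets were above complete medium without lysine, by 0.33 to 0.69, while without leucine they ran from -0.22 to 0.31.

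The J-domain proteins, which bring clients to HSP70 and start its ATP hydrolysis, split into 2 lower genes and 6 with smaller or uneven differences. DNAJA1, the farnesylated partner of HSPA8, had signals of 12912, 5943 and 4575, or 2.17-fold lower without leucine and 2.82-fold lower without lysine. Its other probe set had 7252, 3581 and 3405, with differences of -1.02 and -1.09. DNAJA1 took place 2 of the 6481 brighter genes without leucine and the lowest place without lysine.

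DNAJB1, the HSP40 that works with inducible HSP70, had signals of 1961, 1002 and 795, a difference of -0.97 without leucine and -1.30 without lysine. Its second probe set read 932, 257 and 426, so both were lower on both arrays, with a range of -1.86 to -0.97 without leucine. DNAJB1 took places 6 and 4 among the brighter genes. Over all genes measured, 1.43% were at least 2-fold lower without leucine and 1.95% without lysine. Of the 4 brighter genes that were at least 2-fold lower without leucine (0.0617%), 2 were thus members, HSPA2 and DNAJA1, and of the 28 without lysine (0.432%) 3 were, with DNAJB1.

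DNAJA4 had signals of 594, 582 and 299, which gives -0.03 without leucine and -0.99 without lysine. Its other kept probe sets were dimmer and differed by up to 0.97 without leucine, and all 3 lay below 0 without lysine, from -0.99 to -0.34; their mean, -0.56, missed 1.5-fold. DNAJA2, a close relative of DNAJA1, differed by -0.03 and 0.03 at signals of 5153, 5049 and 5257, so the DNAJA genes differed unequally. DNAJB6, which keeps aggregation-prone proteins soluble, differed by 0.23 and -0.10 on its own probe set. The 2 probe sets that name it with TMEM135 differed by -0.76 and -0.77 without leucine and by -0.37 and -1.36 without lysine, so the probe sets disagreed. DNAJB2, a neuronal J-domain protein, differed by 0.35 and 0.09, and DNAJB4 by 0.02 and -0.36 on its brightest probe set. The dimmer DNAJB4 probe set differed by -0.85 and -0.74. DNAJC7, which has TPR repeats that bind HSP70 and HSP90, differed by -0.03 and -0.40 on its brightest probe set, but its dimmer ones reached -1.67 without leucine.

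**Figure D2:**
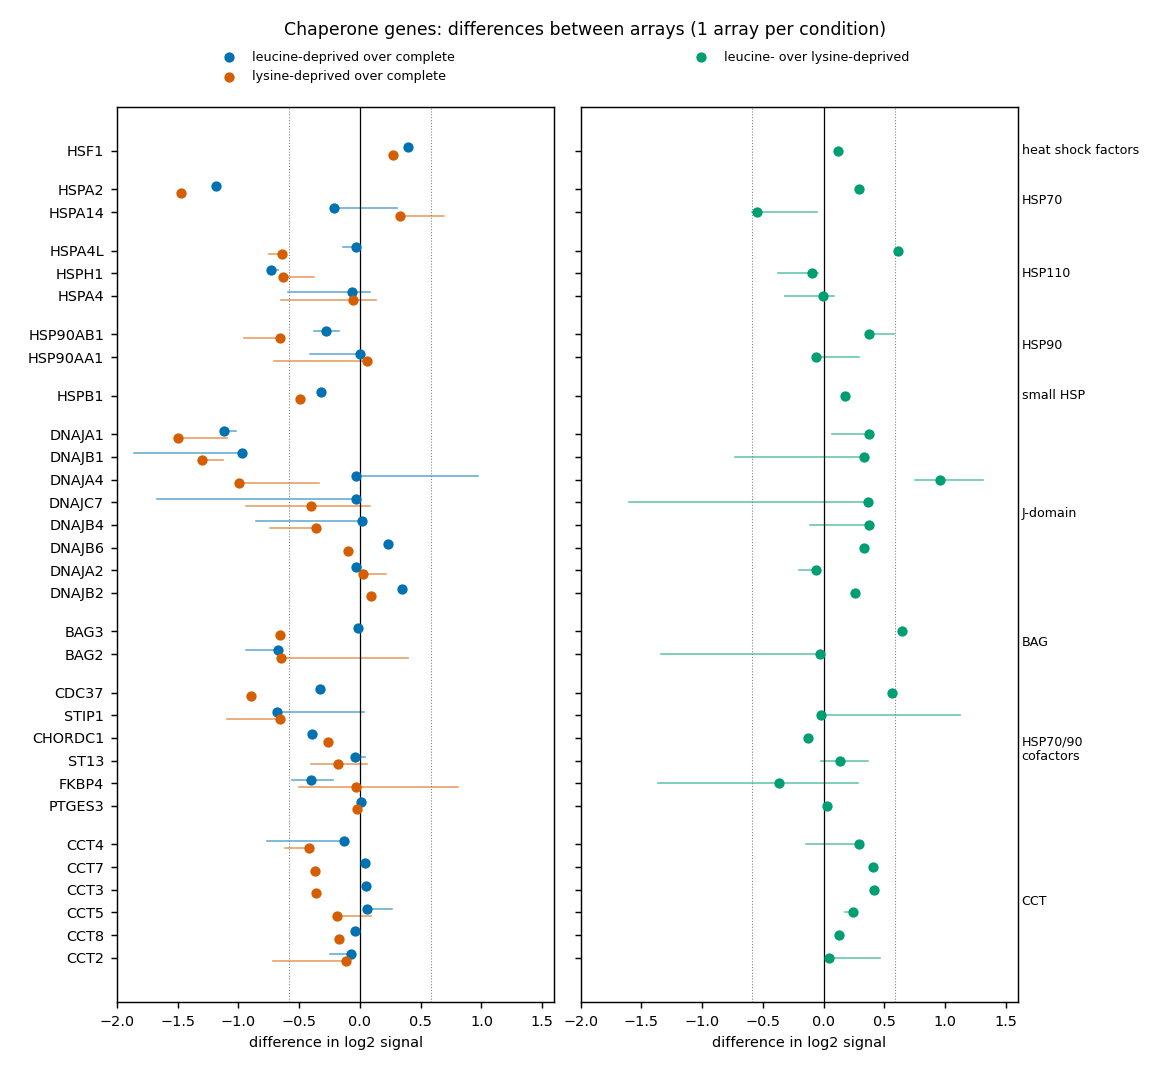
Difference in log2 signal (x axes) for the 31 genes, grouped by family (y axis); points are the brightest probe set, bars span all kept probe sets of the gene, and dotted lines mark 1.5-fold. Left, each deprivation over complete medium; right, leucine-deprived over lysine-deprived. DNAJA1, DNAJB1 and HSPA2 lie farthest to the left, and the 6 CCT genes lie right of 0 in the right panel.

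Among the nucleotide exchange factors, which make HSP70 release ADP and its client, HSPH1 and BAG2 were lower on both arrays, and HSPA4L and BAG3 without lysine. HSPH1, the heat-inducible HSP110, had signals of 6162, 3710 and 3963, or 1.66- and 1.56-fold lower without leucine and lysine. Its 3 probe sets were all lower on both arrays, from -0.75 to -0.68 without leucine and -0.64 to -0.38 without lysine, where their mean (-0.55) missed 1.5-fold. HSPA4, the constitutive HSP110, had signals of 6646, 6349 and 6374 on its brightest probe set. Its differences of -0.07 and -0.06 there were close to complete medium. Its 4 kept probe sets ran from -0.60 to 0.08 without leucine and from -0.65 to 0.13 without lysine. HSPA4L read 180, 176 and 115, so its difference was -0.03 without leucine and -0.64 without lysine, on a dim probe set; a floor at the 60th percentile brought the latter to -0.28.

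BAG2, which also inhibits the ubiquitin ligase CHIP, had signals of 3042, 1906 and 1941, a difference of -0.67 and -0.65. Its dimmer probe set differed by -0.94 without leucine but by 0.40 without lysine, so that the mean of both was -0.13 there. BAG3, which links HSP70 to autophagy and is itself a heat shock gene, had signals of 1492, 1476 and 946. It was level with complete medium without leucine (-0.02) and 1.58-fold lower without lysine.

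Of the HSP90 genes, HSP90AB1 was 1.57-fold lower without lysine, while HSP90AA1 differed little on its brightest probe set. HSP90AA1, the inducible cytosolic HSP90, had signals of 52202, 52228 and 54386 on its brightest probe set, with differences of 0.00 and 0.06. Its other 3 probe sets were lower on both arrays, down to -0.41 and -0.70, so the probe sets disagreed with the brightest one. HSP90AB1, the constitutive form, had signals of 33414, 27489 and 21233, which gives -0.28 without leucine and -0.65 without lysine. All 3 of its probe sets were lower on both arrays and, between the deprivations, higher without leucine than without lysine, by 0.37 to 0.58.

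Of the 6 measured cofactors that connect HSP70 and HSP90 or steer HSP90, STIP1 was 1.5-fold lower on both arrays and CDC37 without lysine. STIP1 (also called HOP), which holds HSP70 and HSP90 at the same time, had signals of 3312, 2065 and 2094, differences of -0.68 and -0.66. Its dimmer probe set differed by 0.03 without leucine and -1.09 without lysine, and the mean of both was -0.33 without leucine. CDC37, which delivers kinases to HSP90, had signals of 1792, 1423 and 961, or -0.33 and -0.90. FKBP4, a prolyl isomerase of steroid receptor complexes, differed by -0.40 and -0.03, and CHORDC1, a heat shock gene for an HSP90 partner, by -0.40 and -0.27. PTGES3 (the cofactor p23) and ST13 (which stabilises HSP70 in its ADP state) were within 0.18 of complete medium on their brightest probe sets. The ST13 probe sets ran from -0.40 to 0.06 without lysine. HSPB1, the small heat shock protein HSP27, had signals of 1306, 1046 and 925, which gives -0.32 and -0.50. The IFT25 probe set of the highest signal differed by -0.07 and 0.13.

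On their brightest probe sets the CCT subunits were near their complete-medium signal without leucine and slightly lower without lysine. The 6 measured subunits had a median of -0.00 without leucine, 3 on either side of 0, which median centring turned into 6 below 0. Without lysine all 6 lay below 0 under each of the scalings tried. Their median there was -0.28 with none past 1.5-fold, but median centring gave -0.52 with 3 of them (CCT3, CCT4 and CCT7) at least 1.5-fold lower. CCT4 differed most, with signals of 23705, 21627 and 17674 (-0.13 and -0.42), then CCT7 (0.04 and -0.37) and CCT3 (0.05 and -0.37). CCT2, CCT5 and CCT8 lay between -0.19 and -0.12 without lysine. The dimmer kept probe set of CCT2 differed by -0.25 without leucine and -0.72 without lysine, and that of CCT4 by -0.76 and -0.62. That of CCT5 differed by 0.26 and 0.09, so the calls for CCT depend on the choice of probe set. The 3 probe sets that name the remaining listed subunit TCP1 with SNORA29, an intronic small nucleolar RNA, lay between -0.20 and 0.18 in both comparisons.

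**Figure D3:**
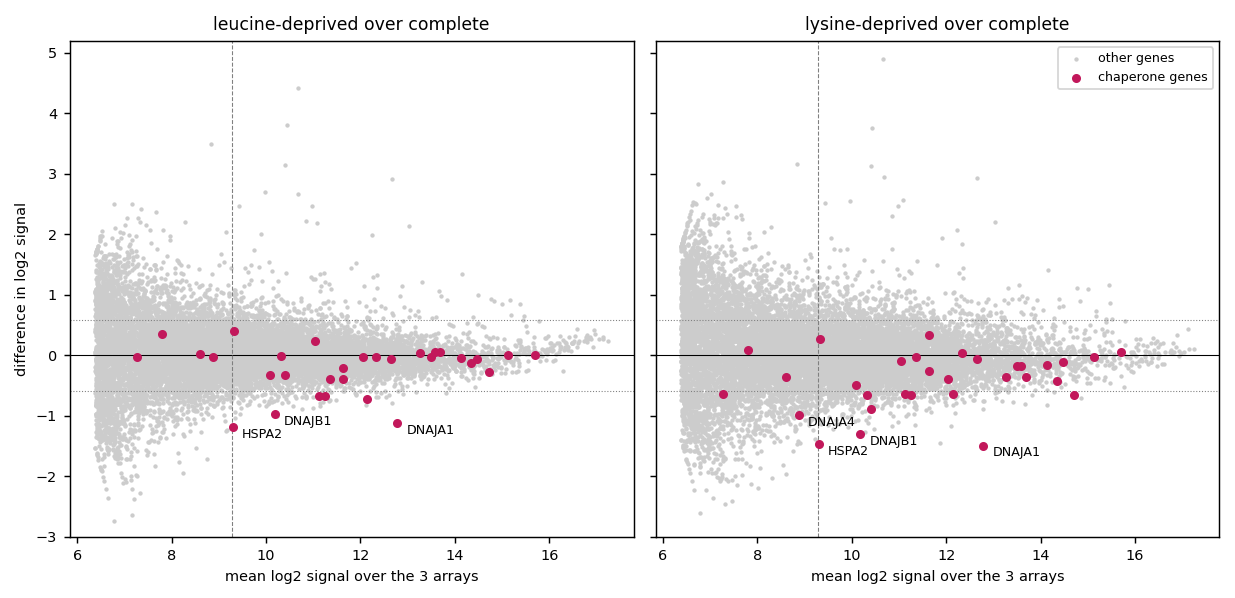
Difference in log2 signal (y axis) against mean log2 signal over the 3 arrays (x axis) for all 12961 genes (grey) and the 31 chaperone genes (magenta); dotted lines mark 1.5-fold and the dashed line the median level. DNAJA1, DNAJB1 and HSPA2 sit on the lower edge of genes of like level on both deprived arrays.

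The heat shock element matches can be set beside these differences. Of the 6 genes that were 1.5-fold lower on both arrays, none had a 3-unit match in the windows searched, where 15.2% of the members did. A 2-unit match was found for 3 of these 6 (DNAJA1, DNAJB1 and BAG2), a share close to the 48.5% of the members, and for HSPA1A and HSPA1B. Of the 5 genes with a 3-unit match, the HSPA8 probe sets were over 2-fold lower, HSP90AB1 differed by -0.28 and -0.65, CHORDC1 by -0.40 and -0.27, DNAJB6 by 0.23 and -0.10 and HSP90AA1 by 0.00 and 0.06.

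The second question is whether the deprivations differed from each other. Their difference uses no complete-medium value, though the level filter and the choice of probe set used all 3 arrays. On the leucine-deprived array 22 of 31 members had a higher signal than on the lysine-deprived array (71.0%, against 51.9% of all genes), with a median difference of 0.24 (all genes, 0.02). At 1.5-fold, 3 members were higher without leucine than without lysine (9.68%, against 7.75% of all genes), near the background, and none was lower, against 9.26%. With probe sets averaged per gene, BAG2 and DNAJC7 were 1.5-fold lower. Over the 61 kept probe sets of the members 6 were 1.5-fold lower and 7 higher. Among all 23055 kept probe sets naming 1 gene, 2991 were 1.5-fold lower and 2909 higher. These probe set counts include values at the floor. The 3 higher members were DNAJA4 (0.96), BAG3 (0.64) and HSPA4L (0.61, or 0.25 with the floor at the 60th percentile). None was 2-fold higher, against 1.93% of all genes. On the brightest probe sets all 6 CCT subunits were higher without leucine, by 0.04 to 0.41. So were 7 of 8 J-domain genes, with a median of 0.35. Dimmer probe sets of DNAJB1, DNAJB4 and DNAJC7 lay below 0, whereas those of DNAJA1 and DNAJA4 stayed above. The mean over the DNAJB1 probe sets was -0.20. By brightest probe set HSPA14 lay farthest below 0 (-0.55), with all 3 of its probe sets below 0, followed by FKBP4 (-0.37). For the HSPA1A and HSPA1B probe sets the difference ran from -0.04 to 0.94, and for those with HSPA8 from -0.07 to 0.74.

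To see where the members differed from related genes, 5 further lists were described the same way. Other cytosolic folding genes, among them prefoldin, tubulin cofactors and further J-domain and BAG genes, had a median of -0.09 without leucine and -0.16 without lysine over 42 genes. Of these 1 was 1.5-fold lower without leucine (2.38%) and 7 without lysine (17.1%), 2 being higher in each. PPP5C, an HSP90-bound phosphatase, differed by -0.46 and -1.06, whereas the membrane-bound J-domain genes DNAJB12 (0.59 and 0.77) and DNAJB14 (0.24 and 1.03) were above complete medium.

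Heat shock factor targets outside the members had medians of -0.14 and -0.08 over 16 genes, with 0 and 1 at least 1.5-fold lower. HMOX1, a haem-degrading enzyme with several stress inputs, was 1.34 and 0.95 higher and ZFAND2A, an arsenite-inducible gene, 0.49 and 0.74 higher, whereas the small heat shock protein gene CRYAB differed by -0.48 and -0.67. Mitochondrial chaperones and proteases had medians of -0.09 and -0.09 over 20 genes, with 0 and 1 at least 1.5-fold lower; their exchange factors went apart, GRPEL2 at 1.44 and 1.49 and GRPEL1 at -0.45 and -0.77, and the heat shock gene HSPE1 differed by -0.37 and -0.47.

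For ER chaperones and genes of the unfolded protein response, the medians were 0.01 and -0.10 over 25 genes, with the ER stress genes HERPUD1 at differences of 1.15 and 1.07, EDEM1 at signals of 273, 610 and 547 and SDF2L1 at differences of -0.76 and -1.09. Proteasome subunits had medians of -0.16 and -0.15 over 27 genes, 21 and 25 of them below 0 and none past 1.5-fold; PSMD11 differed by -0.31 and -0.48, PSMD12 by -0.38 and -0.40 and PSMC1 by -0.40 and -0.34. Beside these lists the members had the lowest median without lysine (-0.37) but not without leucine (-0.04). The leucine median depends on the choice of probe set: averaging the probe sets of each gene gave -0.19. Over all 61 kept probe sets of the members the leucine median was -0.14, with 16 of them at least 1.5-fold lower. Over all 23055 kept probe sets naming 1 gene it was 0.01, with 2252 at least 1.5-fold lower. These probe set counts include values at the floor. No test of these differences between lists was made.

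**Figure D4:**
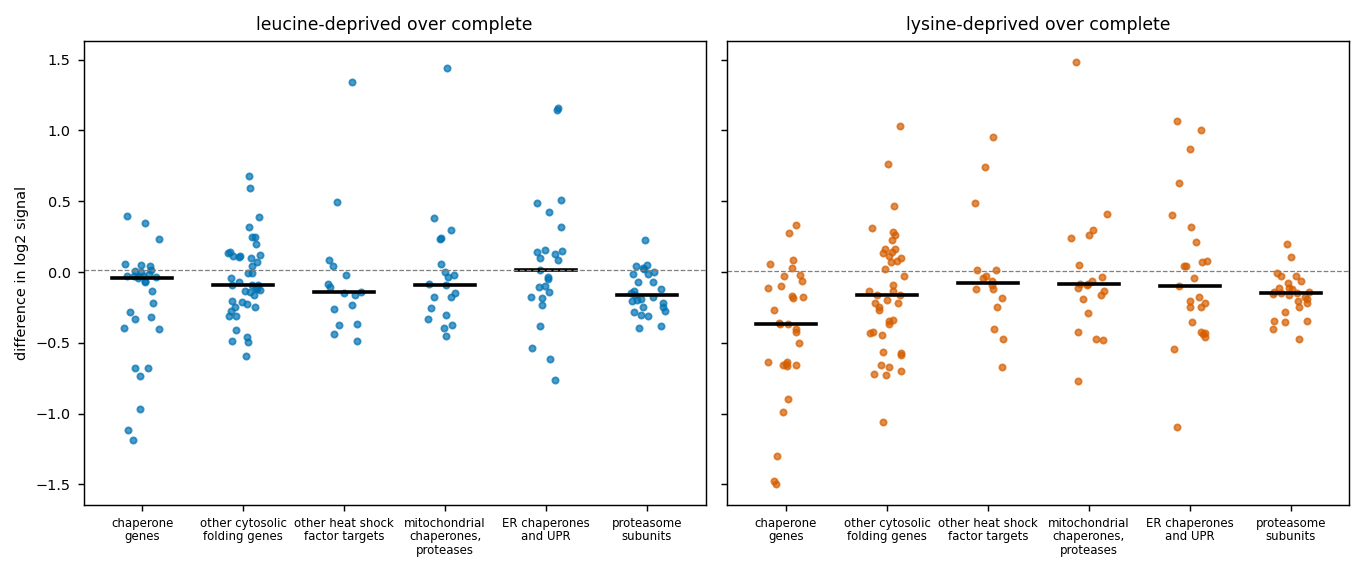
Difference in log2 signal (y axis) of each measured gene in the chaperone set and 5 further lists (x axis); points are genes spread sideways at random, black bars are list medians and the dashed line is the median of all genes. The chaperone genes reach down to -1.19 without leucine and -1.50 without lysine, below every gene of the other lists.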

How the data were processed

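RNA of khES3 cells was measured on 1 Affymetrix array per condition. The deposited file gives 1 linear intensity for each probe set, which the authors computed with MAS5, per the submitters' processing notes; its version is not given in the sources used here. The mean after trimming 2% at each end was 500.1 on every array, so a difference in total mRNA cannot be seen. Gene names came from the platform annotation, and 31 of 31 member genes matched RefSeq by Entrez identifier.

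The 62 control probe sets were left out. Lower signals were raised to a floor, the 40th percentile of their array (54.6 in complete medium, 56.7 without leucine, 62.4 without lysine), before log2 was taken. Probe sets with a mean at or above the median were kept, and a gene took its brightest one. Counts past 1.5-fold use genes above the floor on both arrays. The members and lists were chosen with earlier results of these data known. Every member may be named. By rule, values on all arrays are given for HSF1, members past 1.5-fold over complete medium and the member of each family that differed most. DNAJA2, HSPA4 and HSP90AA1 are given the same way outside this rule, as are the probe sets of HSPA1A with HSPA1B and of HSPA8. Up to 3 genes per other list are named by mean absolute difference.

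Alternatives were other scalings, floors, level filters, probe set choices and a 2-fold threshold. One that added the probe sets of HSPA1A with HSPA1B, HSPA8, TCP1 and IFT25 was chosen after seeing the data. The calculation was tested on simulated data. Python 3.11.15, pandas 2.3.3, numpy 2.4.6, R 4.3.3 and limma 3.58.1 did the computing. Precision is limited by having 1 array per condition. Protein sequences were not used here.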

Additional observations from a re-analysis of the deposited data

How the results depend on the processing

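No paired analysis was possible because each condition has 1 array, and no array could be left out for the same reason. With each array centred on its median, the median of all genes became -0.12 without leucine, -0.24 without lysine and 0.13 between the deprivations. The members' medians became -0.17, -0.61 and 0.36, with 17 members at least 1.5-fold lower without lysine and 3 below 0 between the deprivations. With probe sets averaged per gene, the leucine median was -0.19, and between the deprivations 2 members, BAG2 (-0.68) and DNAJC7, were at least 1.5-fold lower. Without probe sets of the shared and cross-hybridising types only 20 members remained, of which 3 were 1.5-fold lower and 12 below 0 without leucine, and 5 were lower, 1 higher (FKBP4, 0.80 on a dim probe set) and 15 below 0 without lysine. At 2-fold, 2 members were lower without leucine, 3 without lysine and 0 higher between the deprivations. Adding the several-gene and IFT25 probe sets brought the median between the deprivations to 0.14. Under quantile and cyclic loess normalization and the other floors and level filters, the medians lay between -0.07 and -0.04 without leucine, -0.37 and -0.34 without lysine, and 0.18 and 0.26 between the deprivations, with 6 and 10 or 11 members 1.5-fold lower. All named members past 1.5-fold kept their direction under each alternative that measured them. The shares of all genes past 1.5-fold under these alternatives are not given here, so the 1.5-fold counts have no background beside them.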
